A study of Homo sapiens with 10 samples.

Results

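Mitochondrially encoded subunits of respiratory complex I were followed in a ribosome profiling table of 20289 genes. The 7 genes, MT-ND1, MT-ND2, MT-ND3, MT-ND4, MT-ND4L, MT-ND5 and MT-ND6, were taken by their Ensembl gene IDs as the full set of such subunits, and all 7 were found. The set was picked for description with earlier results of these data known. They were measured in 10 libraries of PANC-1 and CFPAC-1, established human cell lines of pancreatic ductal adenocarcinoma. Ribosome profiling sequences the stretches of mRNA that ribosomes shield from nuclease, so a level reflects mRNA amount and ribosome occupancy together. Matched mRNA levels were not analysed here, and in such bulk libraries fewer mitochondria or cells and less RNA in each cannot be told apart.

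PANC-1 was represented by 4 libraries with 1 µM IKE and 2 libraries with 0.1% DMSO, the solvent. CFPAC-1 was represented by 2 libraries with 10 µM IKE and 2 libraries with 0.1% DMSO. IKE, imidazole ketone erastin, blocks cystine import and induces ferroptosis, an iron-dependent death driven by lipid peroxidation. No genetic change is labelled in either line, no IKE dose was common to both, and surviving attached cells were harvested after dead cells had been washed away. The treatment label gives 24 h, whereas the protocol for the footprint extract speaks of 5 days in a row, and which of these holds cannot be told from the labels. The labels call the replicates biological but do not say how they were kept apart, and p-values measure the spread between these libraries.

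Complex I, NADH:ubiquinone oxidoreductase, is the entry point of electrons from NADH into the respiratory chain and pumps protons across the inner mitochondrial membrane. Most of its subunits are made in the cytosol from nuclear genes, while the hydrophobic core of its membrane arm comes from the mitochondrial genome and is made by ribosomes inside the organelle. Mitochondrial mRNAs are cut out of long transcripts that cover nearly a whole strand. Cycloheximide, used here to halt ribosomes, acts on cytosolic ribosomes and not on mitochondrial ones, so mitochondrial ribosomes were not held in place by it before lysis.

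The genes are given in the order of the RefSeq annotation of GRCh38.p14, chromosome MT, the build family named in the submitters' processing notes. MT-ND1 (ENSG00000198888) spans 3307 to 4262 and MT-ND2 (ENSG00000198763) spans 4470 to 5511. MT-ND3 (ENSG00000198840) spans 10059 to 10404, with 65 bases between it and MT-ND4L (ENSG00000212907) at 10470 to 10766. MT-ND4 (ENSG00000198886) spans 10760 to 12137 and shares 7 bases with MT-ND4L, both being read from 1 mRNA. MT-ND5 (ENSG00000198786) spans 12337 to 14148 and meets MT-ND6 (ENSG00000198695), at 14149 to 14673, with 0 bases between them. MT-ND6 lies on the other strand, the light strand, and no gene of the set has introns. The reference lists between 25 (MT-ND3) and 45 (MT-ND5) nuclear pseudogenes for each gene, 37 for MT-ND1. No source used here gives the strand setting or the handling of reads shared with such copies. The values of MT-ND5 beside MT-ND6, of MT-ND4L beside MT-ND4, and of all genes against their copies carry that uncertainty.

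Values are FPKM, fragments scaled by gene length and by mapped fragments. Absolute depth is not given, and between 12933 and 14424 rows were above 0 in a library. Rows above 0 in 1 or 2 libraries alone, which hold few reads, had a median of 0.28, 0.965, 0.48 and 1.01 FPKM in PANC-1 IKE replicates 1 to 4, 0.535 and 0.735 FPKM in PANC-1 DMSO replicates 1 and 2, and 0.23 to 0.28 FPKM in the CFPAC-1 libraries. A higher value means that a read was worth more FPKM, so PANC-1 IKE replicates 2 and 4 were the shallowest by this measure. Replicates scattered more in PANC-1 than in CFPAC-1 for 87.67% of the rows tested. One spread shared by both lines therefore makes p-values too small in PANC-1 and too large in CFPAC-1 for most rows. Differences were tested with limma on log2(FPKM + 1) over the 13125 rows with a mean of at least 1 FPKM, with all 4 groups in 1 model. A gene was called at a Benjamini-Hochberg adjusted p under 0.05 over those rows.

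In PANC-1 the complex I genes other than MT-ND1 were among the most abundant footprints, and in CFPAC-1 they were not. MT-ND5, the proton-pumping subunit at the far end of the membrane arm, ranked between 3 and 7 of 20289 rows in PANC-1 IKE libraries and at 2 and 5 in PANC-1 DMSO libraries. It ranked 752 and 1098 in CFPAC-1 IKE libraries and 1333 and 1918 in CFPAC-1 DMSO libraries. Of all FPKM in a library, the 7 genes made up 2.00%, 4.69%, 3.15% and 7.17% in the PANC-1 IKE libraries, against 2.25% and 3.20% in PANC-1 DMSO. They made up 0.0649% and 0.108% in CFPAC-1 IKE, against 0.034% and 0.0563% in CFPAC-1 DMSO. Every PANC-1 library thus lay above every CFPAC-1 library, while the PANC-1 IKE and DMSO shares overlapped.

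**Figure D1:**
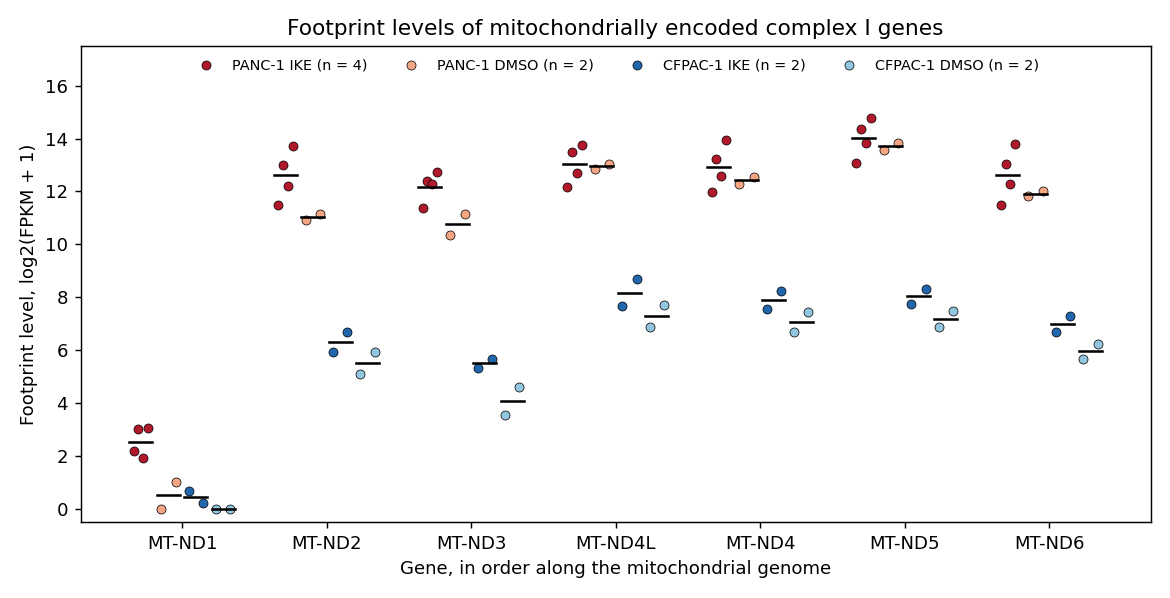
Footprint level of each gene as log2(FPKM + 1), with genes along the x axis in their order on the mitochondrial genome. Points are libraries (PANC-1 IKE n = 4, the other groups n = 2) and bars are group means. All PANC-1 points of the 6 genes from MT-ND2 to MT-ND6 lie above all CFPAC-1 points. MT-ND1 lies below the other genes in each group, highest in PANC-1 IKE (2.76 to 7.37 FPKM).

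At the upper end of the levels, which are per length, MT-ND5 stood clear of the other genes in PANC-1 but not of MT-ND4L in CFPAC-1. MT-ND5 was the highest of the 7 in all 6 PANC-1 libraries, with 18107.5 ± 8493 FPKM in PANC-1 IKE and 13466 ± 1697 FPKM in PANC-1 DMSO (SD, n = 4 and n = 2). In CFPAC-1 MT-ND4L and MT-ND5 lay close together, MT-ND4L at 304 ± 146 FPKM with IKE and 160.4 ± 64.0 FPKM with DMSO, and MT-ND5 at 266 ± 70.3 FPKM with IKE and 148 ± 43.6 FPKM with DMSO (SD, n = 2 each). These 2 neighbours in the order did not differ beyond their spread. In CFPAC-1, MT-ND5 was the higher in replicate 1 and MT-ND4L in replicate 2, with IKE and with DMSO. MT-ND3 had the lowest mean after MT-ND1 in all 4 groups. Its mean was 4920.0 ± 1705 FPKM in PANC-1 IKE and 1792 ± 679 FPKM in PANC-1 DMSO, where MT-ND3 and MT-ND2 overlapped, and 44.6 ± 7.63 FPKM in CFPAC-1 IKE and 17.0 ± 8.72 FPKM in CFPAC-1 DMSO.

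MT-ND1 stood apart from the other genes in all 10 libraries. It encodes the subunit that anchors the peripheral arm and forms much of the ubiquinone channel. The 4 PANC-1 IKE libraries gave 3.54, 7.21, 2.76 and 7.37 FPKM, while PANC-1 DMSO replicate 1 listed it at 0 and replicate 2 at 1.05 FPKM. With IKE the CFPAC-1 libraries gave 0.59 and 0.18 FPKM, and both CFPAC-1 DMSO libraries listed it at 0. Its neighbour MT-ND2 was at 2897 to 13477 FPKM in the same PANC-1 IKE libraries, so MT-ND1 reached at most 0.122% of the MT-ND2 level there, against 0.0466% in PANC-1 DMSO replicate 2. In CFPAC-1 IKE the share was 0.983% and 0.177%. The FPKM scale is per length, and MT-ND1 (956 bases) and MT-ND2 (1042 bases) are of like length in the annotation. What keeps MT-ND1 so far below MT-ND2 in the table was not tested. It passed the filter on low values through the PANC-1 IKE libraries, the group where it is highest, so no fold or test of it is given.

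The first comparison was between the lines, both in DMSO. MT-ND2, MT-ND3, MT-ND4L, MT-ND4, MT-ND5 and MT-ND6 were all called higher in PANC-1, 6 of 6, where 15.1% of all rows tested were called higher, 18.5% lower and 33.6% in either direction. At an unadjusted p under 0.05, 20.0% of all rows were higher. Their log2 differences ran from 5.37 to 6.68 with a median of 5.82, beside a median of -0.03 over all rows.

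Among the proton-pumping subunits, MT-ND5 was at 12267 and 14666 FPKM in PANC-1 DMSO, against 116.8 and 178 FPKM in CFPAC-1 DMSO. The log2 difference was 6.53 ± 0.50 (SE; limma adjusted p = 8.09e-06), or 92.3-fold with a 95% interval of 42.6 to 199.8. MT-ND4 was at 5034 and 6010.0 FPKM in PANC-1 DMSO, against 101.4 and 171 FPKM in CFPAC-1 DMSO. Its difference, 5.37 ± 0.57 (limma adjusted p = 5.66e-05), was the smallest of the 6, at 41.4-fold. MT-ND2, another proton-pumping subunit, was at 1923 and 2255 FPKM in PANC-1 DMSO, against 33.3 and 60.0 FPKM in CFPAC-1 DMSO, a difference of 5.51 ± 0.62 (limma adjusted p = 8.55e-05).

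The smaller subunits of the membrane arm were also higher in PANC-1. MT-ND3, which carries a flexible loop at the junction of the arms, was at 1312 and 2272 FPKM in PANC-1 DMSO, against 10.8 and 23.2 FPKM in CFPAC-1 DMSO. Its difference of 6.68 ± 0.48 (limma adjusted p = 5.60e-06) was the largest of the 6, at 102-fold (95% interval 48.7 to 215), and ranked 16 of 13125 rows. MT-ND4L was at 7402 and 8396 FPKM in PANC-1 DMSO, against 115 and 206 FPKM in CFPAC-1 DMSO, a difference of 5.67 ± 0.54 (limma adjusted p = 2.96e-05). MT-ND6, the light-strand gene, was at 3654 and 4113 FPKM in PANC-1 DMSO, against 49.5 and 75.3 FPKM in CFPAC-1 DMSO, a difference of 5.96 ± 0.61 (limma adjusted p = 4.72e-05). The intervals of the 6 differences overlap one another. All 6 ranked between 16 and 44 of 13125 rows. Every PANC-1 DMSO value of the 6 genes lay above every CFPAC-1 DMSO value of the same gene. Over all rows, 33.8% were higher and 36.8% lower without overlap. With 2 against 2 libraries such non-overlap says little, as an exact two-sided permutation test cannot give a p below 0.333. All 6 stayed called in the 24 alternative settings, with log2 differences from 5.00 to 7.19 and adjusted p of at most 0.00407.

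**Figure D2:**
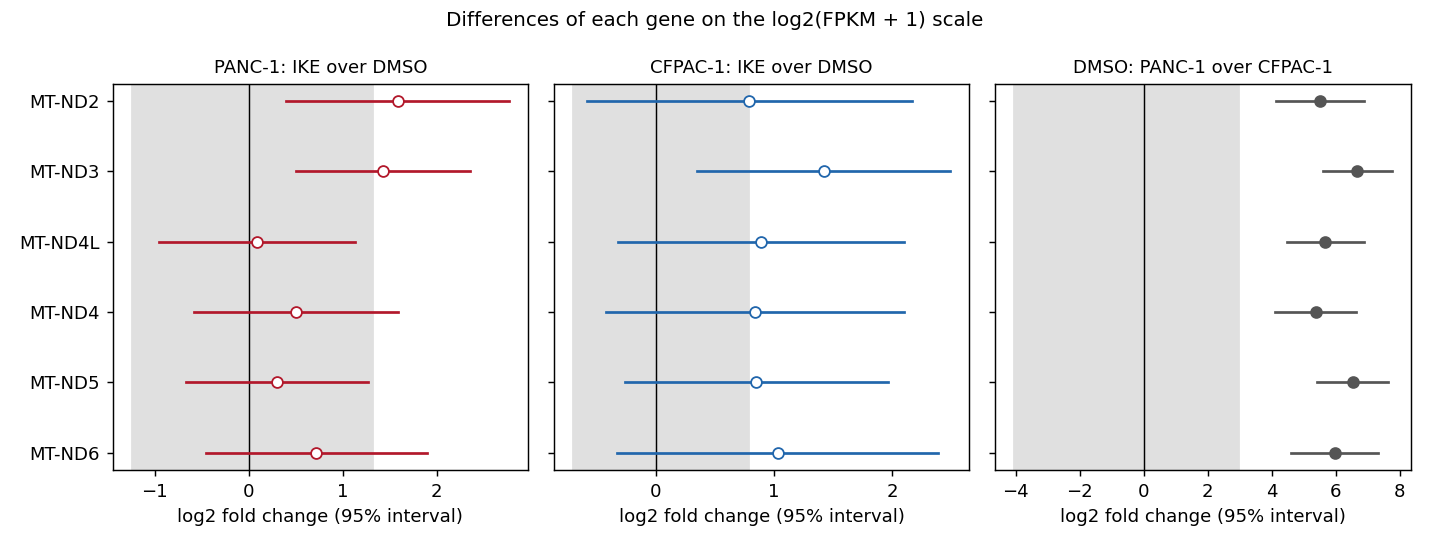
Log2 fold changes of the 6 genes other than MT-ND1, with 95% intervals from limma, for IKE over DMSO in PANC-1, IKE over DMSO in CFPAC-1, and PANC-1 over CFPAC-1 in DMSO. The grey band holds the central 95% of all 13125 rows and filled points were called. The 6 genes lie above the band in the line comparison. With IKE, the 6 genes in CFPAC-1 and MT-ND2 and MT-ND3 in PANC-1 also lie above it, MT-ND2 in CFPAC-1 barely (0.7915 against 0.7908). None is called with IKE in either line.

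The second comparison asked whether the genes changed with 1 µM IKE in PANC-1. None was called (limma, 0 of 6; 2 of 6 had an unadjusted p under 0.05), where 0.00762% of all rows were called higher, 0.0152% were called in either direction and 8.01% were higher at an unadjusted p under 0.05. Both of those genes, MT-ND2 and MT-ND3, were higher in 4 of 4 IKE libraries than in either DMSO library, and the other 4 genes overlapped between the groups. Without overlap, 10.2% of all rows were higher and 12.2% lower.

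MT-ND2 was at 2897, 8234, 4733 and 13477 FPKM across the 4 PANC-1 IKE libraries, against 1923 and 2255 FPKM in PANC-1 DMSO. On the log2 scale it differed by 1.58 ± 0.54 (SE; limma adjusted p = 0.189), with a 95% interval of 0.39 to 2.77. MT-ND3 was at 2642, 5356, 4933 and 6749 FPKM in PANC-1 IKE, against 1312 and 2272 FPKM in PANC-1 DMSO, a log2 fold change of 1.43 ± 0.42 (limma adjusted p = 0.16). The 4 IKE libraries lay above both DMSO libraries in each gene. MT-ND2 averaged 7335 ± 4655 FPKM in PANC-1 IKE and 2089 ± 235 FPKM in PANC-1 DMSO (SD, n = 4 and n = 2).

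MT-ND5 was at 8699.5, 20933, 14390.2 and 28407 FPKM in PANC-1 IKE, against 12267 and 14666 FPKM in PANC-1 DMSO. IKE replicate 1 lay below both DMSO libraries and replicates 2 and 4 above both, giving 0.30 ± 0.43 on the log2 scale (limma adjusted p = 0.754). MT-ND4L was at 4639, 11493, 6679.9 and 13982 FPKM in PANC-1 IKE, against 7402 and 8396 FPKM in PANC-1 DMSO. It had the smallest change, 0.09 ± 0.47 (limma adjusted p = 0.943), with an interval of -0.95 to 1.14 that includes a 2-fold increase. MT-ND4 was at 4005, 9635, 6072 and 15830.2 FPKM in PANC-1 IKE, against 5034 and 6010.0 FPKM in PANC-1 DMSO, a change of 0.50 ± 0.49 (limma adjusted p = 0.618). MT-ND6 was at 2847, 8369, 4934 and 14094 FPKM in PANC-1 IKE, against 3654 and 4113 FPKM in PANC-1 DMSO, a change of 0.72 ± 0.53 (limma adjusted p = 0.504). In these 4 genes IKE replicate 1 was the lowest of the 6 PANC-1 libraries and IKE replicate 4 the highest. With 1 library left out at a time, the change ran from 0.16 to 0.83 for MT-ND4, from 0.0397 to 0.61 for MT-ND5, from 0.34 to 1.11 for MT-ND6 and from -0.15 to 0.38 for MT-ND4L.

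Within PANC-1, the shallower libraries largely had the higher share of complex I footprints. IKE replicates 4 and 2, where a few reads were worth 1.01 and 0.965 FPKM, had the highest shares of complex I footprints, 7.17% and 4.69%, and IKE replicate 1, at 0.28 FPKM, had the lowest, 2.00%. The same IKE replicates, 4 and 2, had the most FPKM in their own 10 most abundant rows, 23.1% and 16.2%, beside 9.29% in IKE replicate 1 and 8.51% and 8.58% with DMSO. The part of depth in the IKE values was not tested. Without IKE replicates 2 and 4 the log2 fold changes were 0.83 for MT-ND2 and 1.06 for MT-ND3, while MT-ND4, MT-ND4L, MT-ND5 and MT-ND6 turned to -0.16, -0.50, -0.26 and -0.05.

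**Figure D3:**
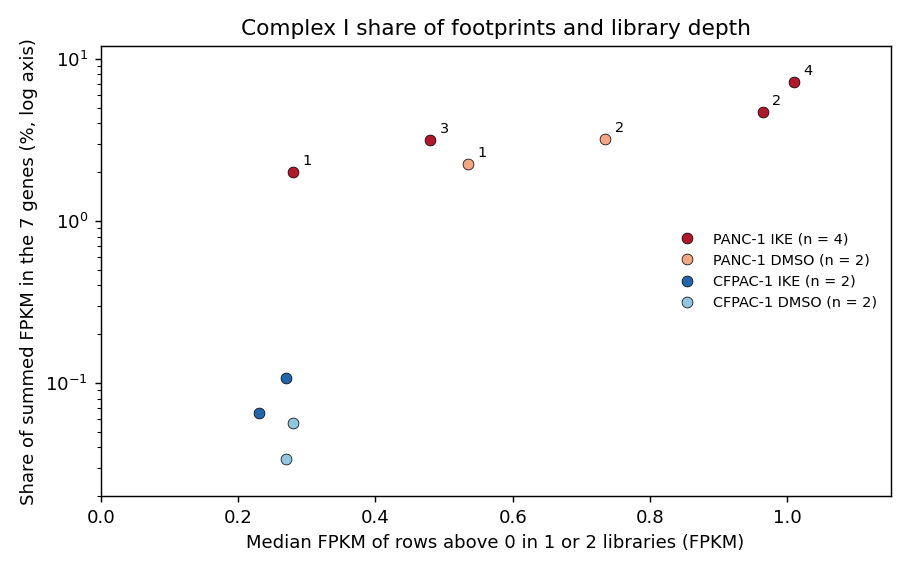
Share of summed FPKM held by the 7 genes (log axis) against the median FPKM of rows above 0 in 1 or 2 libraries, which is higher in shallower libraries. Each point is a library and the numbers are PANC-1 replicates; the PANC-1 shares run from 2.00% to 7.17% and those of CFPAC-1 from 0.034% to 0.108%.

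Within each library the make-up of the set differed between IKE and DMSO in PANC-1. This measure divides each gene by the sum of the 7, so it is free of any factor that scales all of them alike. MT-ND2 held 11.3%, 12.9%, 11.3% and 14.6% of that sum in the PANC-1 IKE libraries, against 6.09% and 5.98% in PANC-1 DMSO. MT-ND3 held 10.3%, 8.37%, 11.8% and 7.29% in PANC-1 IKE, against 4.15% and 6.03% in PANC-1 DMSO. These 2 genes took a larger part of the sum in every IKE library.

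MT-ND5 and MT-ND4L took a smaller part. MT-ND5 held 33.8%, 32.7%, 34.5% and 30.7% in PANC-1 IKE, against 38.8% and 38.9% in PANC-1 DMSO. MT-ND4L held 18.0%, 18.0%, 16.0% and 15.1% in PANC-1 IKE, against 23.4% and 22.3% in PANC-1 DMSO. MT-ND4 and MT-ND6 overlapped between the groups, with means of 15.6% and 12.8% in PANC-1 IKE and 15.9% and 11.2% in PANC-1 DMSO. The shares of a library add up to a whole, so they are not independent of each other. An exact two-sided permutation test of 4 against 2 libraries cannot give a p below 0.0667, so no test of a share is given.

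The ratio of MT-ND2 to MT-ND5 was 0.333, 0.393, 0.329 and 0.474 in the PANC-1 IKE libraries, against 0.157 and 0.154 in PANC-1 DMSO. The shallow libraries, replicates 2 and 4, had the highest values, and replicates 1 and 3 were also above both DMSO libraries. In CFPAC-1 the same ratio overlapped, at 0.278 and 0.323 with IKE against 0.286 and 0.336 with DMSO. MT-ND4L over MT-ND4, a ratio of genes on the same mRNA, was 1.16, 1.19, 1.10 and 0.883 in PANC-1 IKE, against 1.47 and 1.397 in PANC-1 DMSO. It was lower in 4 of 4 IKE libraries. The CFPAC-1 values overlapped, at 1.08 and 1.35 with IKE against 1.14 and 1.2 with DMSO. MT-ND6 over MT-ND5, neighbours on opposite strands, was 0.327, 0.4, 0.343 and 0.496 in PANC-1 IKE, against 0.298 and 0.28 in PANC-1 DMSO. In CFPAC-1 it was 0.47 and 0.494 with IKE, against 0.424 and 0.422 with DMSO, so the IKE libraries were higher in both lines. MT-ND3 over MT-ND5 was 0.304, 0.256, 0.343 and 0.238 in PANC-1 IKE, against 0.107 and 0.155 in PANC-1 DMSO. In CFPAC-1 it was 0.181 and 0.158 with IKE, against 0.0927 and 0.13 with DMSO, again higher with IKE in both lines.

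**Figure D4:**
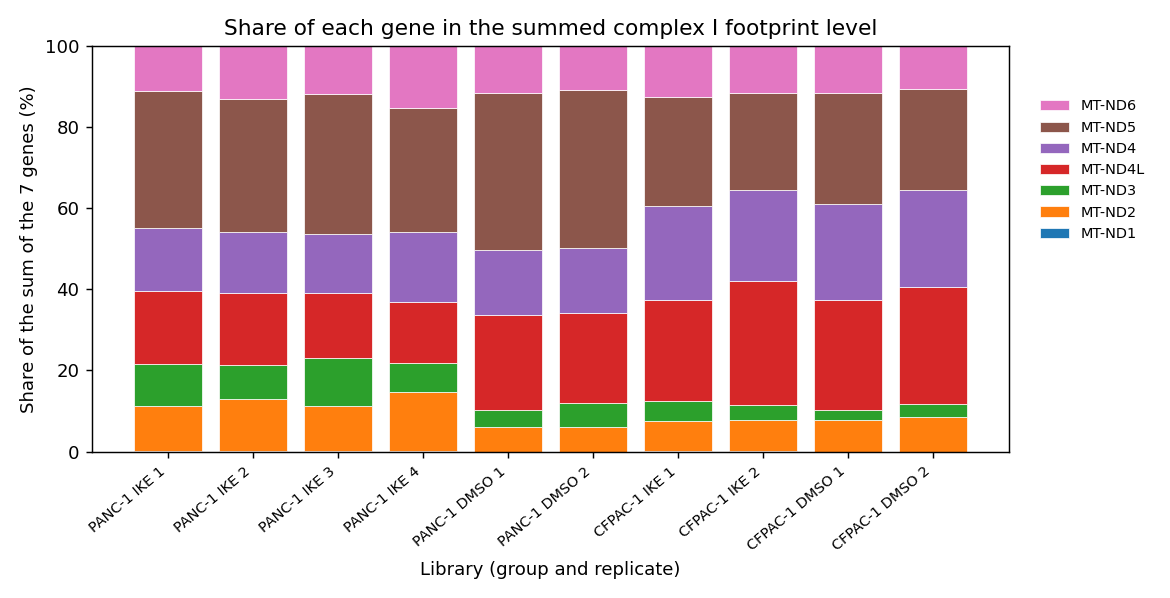
Share of each gene (colours) in the summed FPKM of the 7 genes, 1 bar per library in percent. MT-ND2 and MT-ND3 take more of the 4 PANC-1 IKE bars than of the PANC-1 DMSO bars, MT-ND5 and MT-ND4L take less, and MT-ND1 is too small to see.

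The third comparison set 10 µM IKE against DMSO in CFPAC-1. None of the 6 genes was called (limma, 0 of 6; 1 of 6, MT-ND3, had an unadjusted p under 0.05), where 0.00762% of all rows were called higher and 0.907% were higher at an unadjusted p under 0.05. All 6 fold changes were above 0, from 0.79 to 1.42 with a median of 0.87, beside a median of -0.01 over all rows. MT-ND2, MT-ND3, MT-ND4, MT-ND5 and MT-ND6, 5 of 6, were higher in both IKE libraries than in both DMSO libraries, where 20.2% of all rows were higher without overlap.

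MT-ND3 was at 39.2 and 49.97 FPKM in CFPAC-1 IKE, against 10.8 and 23.2 FPKM in CFPAC-1 DMSO. Its change was 1.42 ± 0.48 on the log2 scale (SE; limma adjusted p = 1 in the shared model and 0.382 in the fit of CFPAC-1 alone). MT-ND6 was at 101 and 156 FPKM in CFPAC-1 IKE, against 49.5 and 75.3 FPKM in CFPAC-1 DMSO, a change of 1.03 ± 0.61. MT-ND5 was at 216 and 315 FPKM in CFPAC-1 IKE, against 116.8 and 178 FPKM in CFPAC-1 DMSO, a change of 0.85 ± 0.50. Both IKE libraries lay above both DMSO libraries in these 3 genes.

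MT-ND4 was at 186 and 301 FPKM in CFPAC-1 IKE, against 101.4 and 171 FPKM in CFPAC-1 DMSO, a change of 0.84 ± 0.57. MT-ND4L was at 201 and 407 FPKM in CFPAC-1 IKE, against 115 and 206 FPKM in CFPAC-1 DMSO, and was the 1 gene of the 6 whose groups overlapped (0.89 ± 0.54). MT-ND2 was at 60.03 and 101.8 FPKM in CFPAC-1 IKE, against 33.3 and 59.98 FPKM in CFPAC-1 DMSO, a change of 0.79 ± 0.62 with almost no gap between the groups. The adjusted p of each of these genes was 1 in the shared model of limma and between 0.396 and 0.55 in the fit of CFPAC-1 alone. With 1 library left out at a time, the changes stayed above 0 but ran from 0.38 to 1.21 for MT-ND2, from 0.38 to 1.398 for MT-ND4L, from 0.46 to 1.21 for MT-ND4, from 0.55 to 1.154 for MT-ND5, from 0.72 to 1.34 for MT-ND6 and from 0.91 to 1.94 for MT-ND3.

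The replicate spread of the set was wide for CFPAC-1. The residual SD of the 6 genes there was 0.408 to 0.657 on the log2 scale, against a median of 0.18 over all rows, and 4.56% to 14.5% of rows had a larger one. In PANC-1 it was 0.574 to 0.861, against a median of 0.481, with 12.5% to 36.0% of rows above. For each of the 6 genes, replicate 2 lay above replicate 1 with IKE and with DMSO, in both lines. The labels do not say whether same-numbered libraries belong together, and the part of this shift in the spread was not tested. The depth measure, 0.23 and 0.27 FPKM in the IKE libraries against 0.27 and 0.28 FPKM in the DMSO libraries of CFPAC-1, was nearly flat.

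The mean shares in CFPAC-1 differed by at most 1.43 percentage points between IKE and DMSO, against up to 6.47 points in PANC-1. The difference between the lines was not tested. MT-ND2 held 7.47% and 7.64% of the sum in CFPAC-1 IKE, against 7.81% and 8.40% in CFPAC-1 DMSO, the opposite direction to PANC-1. MT-ND3 held 4.87% and 3.75% in CFPAC-1 IKE, against 2.53% and 3.24% in CFPAC-1 DMSO, the same direction as in PANC-1. MT-ND6 averaged 12.2% in CFPAC-1 IKE and 11.1% in CFPAC-1 DMSO, and MT-ND4 22.9% in CFPAC-1 IKE and 23.9% in CFPAC-1 DMSO, both without overlap. MT-ND5 and MT-ND4L overlapped between the groups. An exact two-sided permutation test of 2 against 2 libraries cannot give a p below 0.333, so non-overlap in CFPAC-1 says little and no share was tested. In DMSO the lines differed in the make-up too: MT-ND5 held 38.8% and 38.9% in PANC-1 against 27.3% and 24.98% in CFPAC-1, and MT-ND4 held 15.9% in both PANC-1 libraries against 23.75% and 24.0% in CFPAC-1.

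The fourth comparison tested the difference between the IKE effects of the lines. Line and dose cannot be told apart in it. None of the 6 genes was called (limma, 0 of 6, and 0 had an unadjusted p under 0.05), where 0.0305% of all rows were called in either direction, 0.0229% as lower, and 3.65% were higher at an unadjusted p under 0.05. The differences, PANC-1 minus CFPAC-1, ran from -0.80 ± 0.72 (MT-ND4L) to 0.79 ± 0.82 (MT-ND2) on the log2 scale. The interval for MT-ND4L was -2.39 to 0.80 and that for MT-ND2 -1.02 to 2.61, so differences of more than 2-fold either way lie within them. The adjusted p was between 0.794 and 0.999.

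Across all 10 libraries the log2 levels of the 6 genes correlated with the mean of the set at 0.992 to 0.998, and MT-ND1 at 0.797. Over the 6 PANC-1 libraries alone the values were 0.815 (MT-ND4L) to 0.985 (MT-ND2), with MT-ND1 at 0.851. These are descriptions over libraries that share depth, and the first is dominated by the difference between the lines. The mean includes the gene itself, so high values are partly built in. Rows outside the set are not part of the mean, but those given here were picked as the highest of all. Their values are therefore high by that choice. Among 10703 rows averaging 5 FPKM or more, the 5 rows outside the set most like its mean over the 10 libraries had correlations of 0.994 to 0.998. The closest were ENSG00000198938 (0.998) and ENSG00000198727 (0.997), which neither the table nor the reference used here pairs with a name. Over the PANC-1 libraries the 5 closest rows had 0.99 to 0.996.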

How the data were processed

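Ribosome footprints were measured in 10 libraries of 4 groups. The values the authors deposited are FPKM for each gene in each library, per the file headers; fastp, Bowtie2 2.2.8, STAR, RSEM, DESeq2 and GRCh38 are named in the submitters' processing notes without role or order. No source used here gives the annotation, strand setting or footprint length filter. All 10 columns were mapped by name, and 0 pairs were identical. No count test was run, since depth is unknown.

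With limma 3.58.1 in R 4.3.3, a model of 4 groups (6 residual degrees of freedom) was applied to log2(FPKM + 1). Variances followed a trend with the mean, and p-values were adjusted by Benjamini and Hochberg over 13125 rows (mean of at least 1 FPKM). The fit was tested on simulated data, where sharing 1 spread between the lines gave more false calls in PANC-1 than the threshold allows. None of the genes changed 2-fold was called in either line, and larger changes were called more often, so an uncalled change of about 2-fold says little. Weights by line instead gave too many false calls in CFPAC-1. Alternatives covered pseudocount, filter, scaling, spread, left-out libraries and a replicate block.

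The reference table holds no Ensembl IDs and named 0 rows, so the lists of other respiratory chain, assembly, mitochondrial expression and cell type marker genes were not tested. The rule for named genes was all members, plus the 5 rows most like their mean, of which 2 IDs are given. Members and lists were chosen with earlier results of these data known. Sequences of the genes were not used here.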

Additional observations from a re-analysis of the deposited data

Results flagged for a closer look

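With IKE the share of MT-ND2 in the summed level of the 7 genes was higher in PANC-1 and lower in CFPAC-1, without overlap. It was 6.47 percentage points higher on average in PANC-1 (12.5% with IKE, 6.03% with DMSO) and differed by -0.548 points in CFPAC-1 (7.56% with IKE, 8.10% with DMSO). The difference between the lines was not tested, the doses differ, and 14 measures were checked in this way. The lower CFPAC-1 share rests on 2 against 2 libraries, where an exact two-sided permutation test cannot give a p below 0.333. The CFPAC-1 DMSO libraries alone ran from 7.81% to 8.40%, and MT-ND2 over MT-ND5 overlapped in CFPAC-1. Of 15 measures checked for a library far from the others in PANC-1 IKE, 0 had one.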

How the results depend on the processing

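No gene of the set was called with IKE in either line, or for the difference between lines, in any alternative, and the 6 calls in DMSO were kept in all 24. Directions with IKE in CFPAC-1 did not turn for the 6 genes other than MT-ND1. In PANC-1 those of MT-ND2 and MT-ND3 did not turn. The value of MT-ND4L there turned to -0.28 with quantile normalization, -0.18 with library weights and -0.11 with the libraries numbered 1 and 2 alone, with or without the replicate block, and ran from -0.15 to 0.38 over single left-out libraries (negative without IKE replicate 2 or 4). MT-ND5 turned to -0.26 with quantile normalization. Without PANC-1 IKE replicates 2 and 4 together, MT-ND4, MT-ND4L, MT-ND5 and MT-ND6 were at -0.16, -0.50, -0.26 and -0.0487. The difference between the IKE effects of the lines for MT-ND3, 0.01 in the fit as reported, was -0.0447 with a pseudocount of 0.1, -0.16 with quantile normalization, -0.0273 scaled without the set, -0.0694 with library weights, -0.36 without both shallow libraries and -0.30 with the replicate block or the same libraries without it. Over single left-out libraries it ran from -0.51 to 0.53 for MT-ND3, -0.71 to 0.0432 for MT-ND4 and -0.69 to 0.0763 for MT-ND6. Over the whole table, rows called numbered 1 with IKE in CFPAC-1, but 58 with no filter, 54 with library weights, 46 with weights by cell line (added after seeing the data, and prone to false calls in CFPAC-1 on simulated data), 0 in the separate fit and with the replicate block, and 2 with a pseudocount of 0.1 or without both shallow libraries (0 to 4 over single left-out libraries). In PANC-1 they numbered 2, but 36 with no filter, 5 with a pseudocount of 0.1, 4 with the libraries numbered 1 and 2 alone, 1 with a pseudocount of 5, with median ratio scaling, scaled without the set, in the separate fit and without both shallow libraries, and 0 with either kind of weights and with the block (0 to 3 over single left-out libraries). The line comparison had 4410, but 2495 or 2519 without CFPAC-1 DMSO replicate 1 or 2 and 2546 with the block, and quantile normalization gave 2354 higher and 2170 lower where the reported fit gave 1984 and 2426 (median of all rows 0.10 against -0.03). For the difference of effects they numbered 4, but 45 with no filter, 1 with a pseudocount of 5, without both shallow libraries and with the libraries numbered 1 and 2 alone, and 0 with the block (0 to 4 over single left-out libraries). The labels do not say whether same-numbered libraries belong together. Their replicate differences correlated over all rows tested at -0.206 in PANC-1 and 0.0495 in CFPAC-1, which cannot decide it for the set. The share of the 7 genes was higher in replicate 2 than in replicate 1 with IKE and with DMSO, in both lines. The fit of libraries 1 and 2 alone was also added after seeing the data. The separate fits gave no value for that difference. The causes were not tested. Depth is unknown.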
